A study of Mus musculus with 54 samples.

Results

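The genes described here encode 9 receptors for the growth factors of blood formation: Kit, Flt3, Epor, Csf1r, Csf2ra, Csf2rb, Csf3r, Il3ra and Il6ra. They were chosen by name, with earlier results of these data known, and all 9 were present among the 23154 genes of the count table. Single mouse haematopoietic cells were profiled at the 3' ends of mRNA with a modified Smart-seq2 protocol, in C57BL/6 mice labelled 8 to 10 weeks old. The annotation covered 2301 cells: 1270 from 28 gates sorted at steady state, and 1031 recovered after transplantation. The steady state haematopoietic stem cell (HSC) gates LT_HSC, Fraction I, Fraction III, ESLAM and ESLAMSK were joined as iHSC (305 cells, 12 libraries). The multipotent progenitor (MPP) gates ST_HSC, LMPP, MPP1, MPP2, MPP3, MPP4, Fraction II, HPC2 and HPC3 were joined as iMPP (508 cells, 17 libraries). Granulocyte, Monocyte and Macrophage gates formed the mature myeloid group (106 cells, 3 libraries), EryA and EryB the erythroid group (70 cells, 3 libraries), and CD4T, CD8T, B cell and NK cell the mature lymphoid group (167 cells, 4 libraries). Transplanted cells, annotated as positive for green fluorescent protein, were collected on day 1 (61 cells, 3 libraries), day 3 (125 cells, 3 libraries), day 5 (336 cells, 7 libraries) and day 7 (389 cells, 10 libraries). The donor gate, the host, its conditioning and the animals behind each library were not given in the sources used here, so p-values measure the spread between libraries, which may in part be technical.

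Kit and Flt3 are receptor tyrosine kinases for stem cell factor and Flt3 ligand, and Csf1r is the related kinase that binds the macrophage growth factor M-CSF. Epor binds erythropoietin and Csf3r binds G-CSF, which drive red cell and neutrophil output. Csf2ra and Il3ra are the ligand-binding chains for GM-CSF and interleukin 3, and both signal through the shared chain encoded by Csf2rb. Il6ra binds interleukin 6 and signals through a partner chain. The receptors without kinase activity rely on Janus kinases and STAT factors, whose targets Cish and Socs2 feed back on the signal.

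Promoters of 7 of the 9 genes were taken from the RefSeq table (GRCm38.p6), each covering 250 bases before and 50 after the start site. They were searched on both strands for GATAA, a core bound by GATA factors, for GAGGAA, a core bound by the myeloid factor PU.1, and for TTGCNNAA, a site of the C/EBP family. These letters occurred in 25.4%, 28.3% and 10.8% of all 32851 promoters of this length. GATAA was found in the promoters of Epor and Il6ra, GAGGAA in those of Kit, Csf2ra, Csf3r and Il6ra, and TTGCNNAA in that of Il3ra. The Flt3 window held none of them. Csf1r was left out of this search, and no entry was found for Csf2rb, so neither promoter is described. A match is a description and no evidence of binding. The promoters of Epor, Csf2ra and Csf3r are shown because Epor was highest in the CMP and MEP gates, where Csf2ra and Csf3r were low, and had 0 counts in mature myeloid gates, where both were high. They lie at chr9:21963527-21963826 (minus strand), chr19:61228369-61228668 (minus strand) and chr4:126024409-126024708 (plus strand), and are printed 5' to 3' with motif letters in capitals (TTATC is GATAA on the other strand).
Epor: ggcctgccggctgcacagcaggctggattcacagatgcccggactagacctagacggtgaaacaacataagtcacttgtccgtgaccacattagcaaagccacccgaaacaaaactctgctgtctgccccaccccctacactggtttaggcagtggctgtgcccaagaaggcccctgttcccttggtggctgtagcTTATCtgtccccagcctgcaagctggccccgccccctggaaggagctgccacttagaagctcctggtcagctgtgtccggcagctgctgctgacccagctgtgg
Csf2ra: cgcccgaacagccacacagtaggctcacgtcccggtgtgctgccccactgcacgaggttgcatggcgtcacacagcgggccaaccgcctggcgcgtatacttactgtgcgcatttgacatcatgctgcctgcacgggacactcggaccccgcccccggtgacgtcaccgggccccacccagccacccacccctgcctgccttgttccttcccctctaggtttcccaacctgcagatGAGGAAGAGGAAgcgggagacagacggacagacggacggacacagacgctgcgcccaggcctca
Csf3r: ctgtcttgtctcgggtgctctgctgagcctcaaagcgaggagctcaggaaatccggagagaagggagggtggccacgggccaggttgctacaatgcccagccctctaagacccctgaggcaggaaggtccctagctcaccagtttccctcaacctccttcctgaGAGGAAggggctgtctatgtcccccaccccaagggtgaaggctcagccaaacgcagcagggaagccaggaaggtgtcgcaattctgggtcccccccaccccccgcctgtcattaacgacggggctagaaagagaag

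In the GENCODE annotation of GRCm38, Kit lies at chr5:75574916-75656722 (plus strand), Flt3 at chr5:147330741-147400489 (minus strand), Epor at chr9:21958897-21963506 (minus strand), Csf1r at chr18:61100598-61132149 (plus strand) and Csf2ra at chr19:61223957-61228429 (minus strand). Csf2rb lies at chr15:78325752-78353847 (plus strand), Csf3r at chr4:126024550-126044440 (plus strand), Il3ra at chr14:14346275-14356011 (plus strand) and Il6ra at chr3:89864059-89913196 (minus strand). Csf2rb has a close paralog, Csf2rb2, so the split of reads between them is uncertain. Csf1r overlaps Hmgxb3 on the opposite strand, and Flt3, Il3ra and Il6ra overlap predicted antisense genes. Whether counting used strand was not given, so reads of these partners cannot be told apart.

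Levels are given as CPM, counts per 1000000 of the counts summed over a group's cells in a library, with the library as replicate and the SD over libraries. Library totals of annotated cells ran from 745742 to 30433157 counts, and single cells carried a median of 203971. Shares of cells with a count are given after thinning each cell to 20000 counts. Shares also differed between libraries of the same gate. Before thinning, Kit was found in 4.17% of CD4T cells in library L2, whose annotated steady state cells were T cells, and in 81.8% in L53, which also held MPP4 cells. After thinning these shares were 0.737% and 24.9%, and the levels were 0.287 and 13.1 CPM. The cause of this difference was not tested, and low shares and levels in mature cells cannot be taken as expression. The labels of L4 and L49 named other populations than the annotation, which was used here. In summed counts, fewer cells of a type and less RNA per cell cannot be told apart.

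Kit was high in the HSC and early MPP gates and low in mature cells. Its level was 439 ± 299.8 CPM (n = 5) in Fraction III, 279 ± 20.5 CPM (n = 2) in MPP1 and 237 ± 36.8 CPM (n = 2) in LT_HSC, which did not differ beyond the spread of Fraction III. Fraction III included 1 library of 6 cells at 970.0 CPM, and its next highest library was at 342. Kit was lower in MPP3 (105 ± 2.46 (n = 2)), ST_HSC (82.6 ± 20.6 (n = 2)) and CLP (15.6 ± 16.3 (n = 2)), and the means of the Granulocyte, Monocyte and Macrophage gates were 2.28, 2.07 and 2.64 CPM. After thinning, 89.4% of MPP1, 57.9% of LT_HSC and 2.38% of Monocyte cells carried Kit. Surface Kit and Flt3 are commonly part of the gates for these populations, and the gates were not given, so both genes are described between sorted populations without a test. The genes with the profile most like that of Kit across the 28 populations were Rab38 (Pearson r = 0.946 of log2(CPM + 1)), Muc13 (0.938) and Ociad2 (0.923), among 10130 genes compared. These and the correlations below are descriptions, since populations share libraries.

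Flt3 was highest in LMPP (298 ± 9.70 CPM (n = 2)) and MPP4 (292 ± 103 CPM (n = 3)), the lymphoid-primed progenitor gates, and next in HPC3 (178 ± 136 (n = 3)) and the lymphoid progenitor gate CLP (173 ± 27.1 (n = 2)). LMPP and MPP4 did not differ beyond their spread, and HPC3 libraries ran from 37.3 to 309.6 CPM. After thinning, 94.6% of LMPP and 89.1% of MPP4 cells carried Flt3, against 9.68% of MPP1 cells, where its level was 6.48 ± 0.386 CPM (n = 2). MEP had 0 counts in its 1 library. The most similar profiles were those of Dntt (r = 0.777), the terminal transferase of lymphoid progenitors, Sstr2 (0.748) and Kif17 (0.743), all highest in CLP.

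Epor was highest in CMP (90.9 CPM (1 library)) and MEP (53.9 CPM (1 library)), the gates of committed myeloid and of megakaryocyte and erythroid progenitors. EryB followed at 53.4 ± 61.6 CPM (n = 2), with 96.99 in L4 and 9.86 in L42. Of the MPP gates, MPP2 was highest (36.8 ± 21.3 (n = 3)) and MPP4 lowest (0.324 ± 0.561 (n = 3)). Epor had 0 counts in CD4T, CLP, Granulocyte, Monocyte and Macrophage cells. Its profile was most like those of Aqp1 (r = 0.950), a red cell water channel, Gata1 (0.933), an erythroid transcription factor, and Epdr1 (0.926). The globin genes Hba-a1 and Hbb-bt were at 0 in all sorted groups and on all days, the erythroid group included. The 5 erythroid markers, with these 2, summed to 1705 to 3438 CPM in the erythroid group. They summed to 0 to 1440 CPM in iHSC and 3687 to 5922 in the CMP, GMP and MEP gates.

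Csf1r was highest in Macrophage (215 CPM (1 library)) and Monocyte (169 ± 8.42 CPM (n = 2)) among the gates whose libraries were alike, and it was at 114 CPM (1 library) in GMP, the granulocyte and monocyte progenitor gate. It had 0 counts in LT_HSC, MPP1 and Fraction II. In the MK gate it was at 375 CPM in L55 and 1.05 in L28, and in NK cells at 242 in L3 and 19.5 in L54. MK cells of L55 carried mast cell and basophil markers at 17728 and tissue macrophage markers at 3141 CPM, against 1.05 and 49.5 in L28. NK cells of L3 carried neutrophil markers at 92432 CPM, against 2062 in L54. The part of these markers in the Csf1r levels was not tested. Tyrobp (r = 0.919), an adaptor of myeloid and NK receptors, Hp (0.896) and Fcgr3 (0.890) had the profiles most like that of Csf1r.

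Csf2ra was highest in Macrophage (339 CPM (1 library)), Granulocyte (310.4 ± 1.28 CPM (n = 2)) and Monocyte (288 ± 24.9 CPM (n = 2)), and after thinning 98.1% of Macrophage cells carried it. It was lowest in CD8T (1.06 ± 0.0420 (n = 2)) and CMP (5.95 (1 library)). The lysozyme genes Lyz2 (r = 0.926) and Lyz1 (0.919) were among the genes of most similar profile. Csf2rb was at 223 ± 77.8 CPM (n = 2) in MK, 166 ± 58.5 CPM (n = 2) in Monocyte, 152 ± 107 CPM (n = 2) in Granulocyte and 143 CPM (1 library) in Macrophage, which did not differ beyond their spread. MK cells carried neutrophil markers at 48196 to 202447 CPM. Among stem and progenitor gates Csf2rb was highest in Fraction III (58.2 ± 53.5 (n = 5)) and GMP (57.3 (1 library)). Ralb (r = 0.876), Plod3 (0.855) and Sirpa (0.842) had the profiles most like that of Csf2rb. Between the receptors, Csf2ra correlated with Csf2rb across populations (r = 0.82), and Csf3r with both (0.80 and 0.84), whereas Il3ra had r = 0.01 with Csf2ra and 0.09 with Csf2rb.

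Csf3r was at 857 and 261 CPM in the Granulocyte libraries, at 821 and 147 in the MK libraries, and at 241 ± 5.80 CPM (n = 2) in EryB. It was also present in early gates, at 92.1 ± 62.6 CPM (n = 2) in LMPP, 68.98 ± 11.6 CPM (n = 2) in MPP3 and 61.5 ± 15.1 CPM (n = 2) in LT_HSC. CMP (3.06 (1 library)) and MEP (0.314 (1 library)), where Epor was highest, were low. Spi1, which encodes PU.1 (r = 0.901), Alox5ap (0.889) and Ckap4 (0.887) had the profiles most like that of Csf3r.

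Il3ra was low in most gates. B cells were at 112 CPM in L3 and 2.39 in L54, and CD8T cells at 43.01 in L53 and 0 in L2, so these means rest on single libraries. In LMPP (35.1 ± 15.3 (n = 2)) and Monocyte (26.9 ± 1.34 (n = 2)) both libraries were raised. Il6ra was high in Macrophage (176 CPM (1 library)) and Monocyte (107 ± 28.7 CPM (n = 2)) and also in CD4T cells (148 ± 58.4 CPM (n = 2)). CD8T cells were at 92.03 CPM in L2 and 9.11 in L53, while B cells (0.227) and NK cells (0.459) were near 0. The closest profiles were Map3k1 (r = 0.644), Neurl2 (0.578) and Acot9 (0.565) for Il3ra, and Ccdc109b (0.747), Twf2 (0.744) and Amica1 (0.730) for Il6ra.

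**Figure D1:**
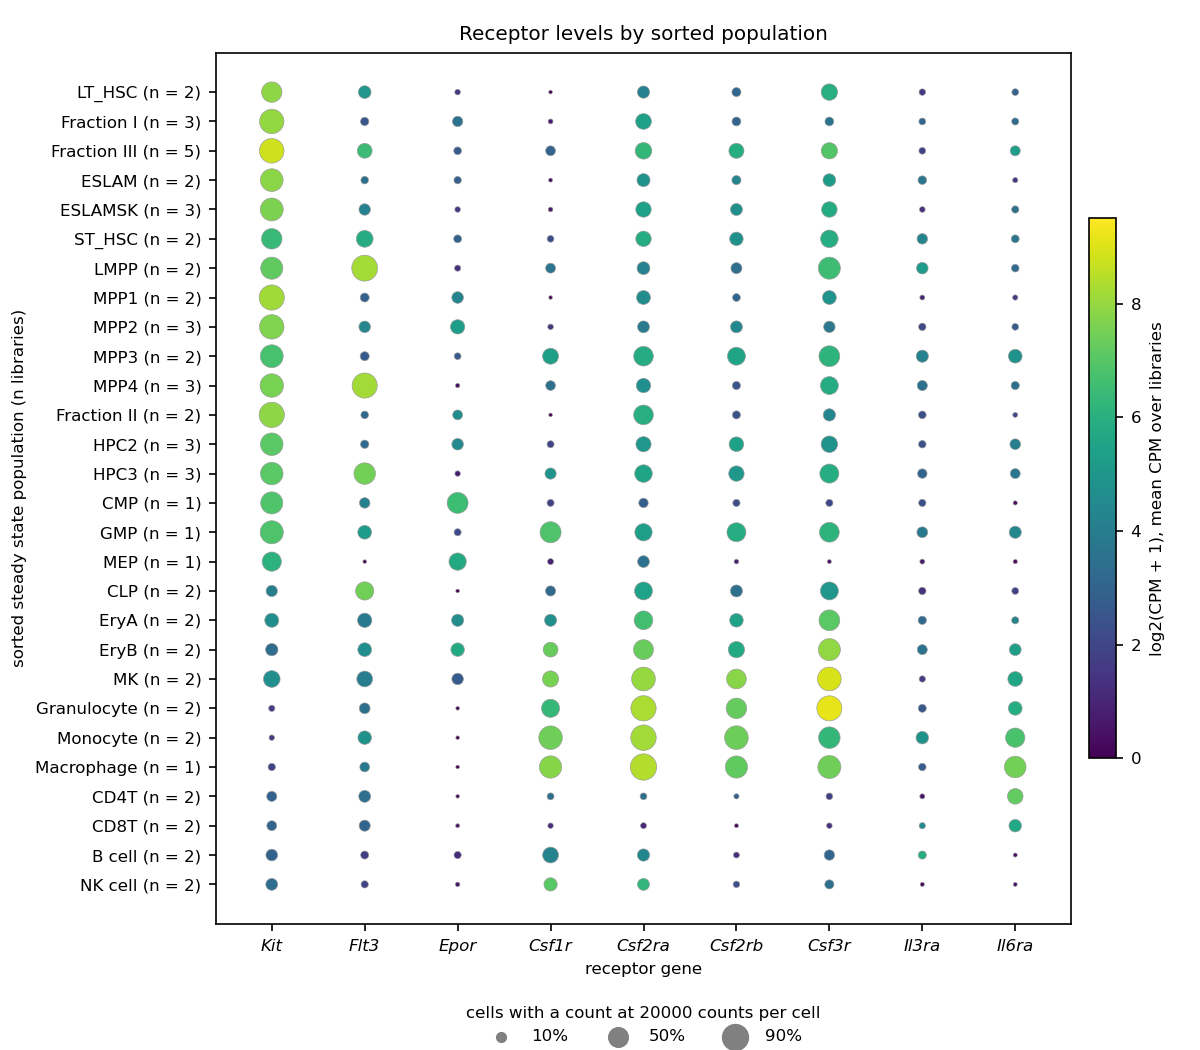
Level (colour, log2 of the mean CPM over libraries plus 1) and share of cells with a count after thinning to 20000 counts (dot area) of the 9 receptors (columns) in 28 sorted steady state populations (rows, with the number of libraries). Kit is high from LT_HSC to MEP, Flt3 peaks in LMPP and MPP4, Epor in CMP and MEP, Csf2ra in Macrophage, Granulocyte and Monocyte, and Csf3r in Granulocyte and MK.

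Steady state groups were compared with edgeR's quasi-likelihood test over all genes, and a gene was called at a Benjamini-Hochberg adjusted p under 0.05. All comparisons with iHSC share the iHSC sums, so they are not independent of each other. Some libraries also held cells of several groups, so voom with the library as a random effect is given where it changed a call. In mature myeloid cells, 4 of the 7 receptors other than Kit and Flt3 were called higher and 1 lower, where 12.2% of 13817 genes were called. Csf1r was at 134, 136 and 215 CPM in the 3 libraries against 0 to 24.3 (median 0.282) in iHSC, and the groups did not overlap (log2 change 6.37 ± 1.40, adjusted p 0.00122). Csf2ra was at 286, 307 and 339 CPM against 6.47 to 211 (median 31.5), again without overlap (log2 change 3.08 ± 0.67, adjusted p 0.00102). Csf3r rose from 46.2 ± 40.1 to 228 ± 122 CPM, with overlapping groups (log2 change 2.83 ± 0.64, adjusted p 0.00171). Csf2rb rose from 26.8 ± 33.8 to 154.6 ± 55.5 CPM (log2 change 3.11 ± 0.87, adjusted p 0.0117), but was not called without L12 (adjusted p 0.0730) or without L43 (0.0646). Epor had 0 counts in all 3 libraries against 6.03 ± 6.02 CPM in iHSC, at least 31.7-fold lower against a floor of 3 counts over the group. Its edgeR adjusted p was 0.0265, and 0.0995 to 0.103 with any 1 of the libraries left out, and limma on the mean CPM over cells did not call it (0.0871). Il6ra, at 118 ± 50.02 against 19.6 ± 50.9 CPM, was not called (log2 change 3.26 ± 1.18, adjusted p 0.0611). It was called in 4 of 11 alternatives, among them the fit without Fraction III cells in iHSC (4.77, adjusted p 0.00227) and limma's voom with the library as a random effect (5.23, adjusted p 5.02e-05). Il3ra was not called (log2 change 2.09 ± 1.06, adjusted p 0.189). Some monocyte and macrophage gates use surface Csf1r, and whether these did was not given.

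In the erythroid gates, 4 of the 7 receptors were called higher and 0 lower, where 15.2% of genes were called. Epor was at 9.16, 31.8 and 96.99 CPM in L16, L42 and L4 against 0.884 to 17.2 (median 3.10) in iHSC, so L16 lay inside the iHSC range (log2 change 3.80 ± 1.12, adjusted p 0.0158). Without L4 it was not called (2.33, adjusted p 0.282). The other called genes were receptors of myeloid growth factors. Csf1r was at 26.3, 73.9 and 77.5 CPM, above every iHSC library (log2 change 5.15 ± 1.38, adjusted p 0.00717), and Csf3r at 121, 172 and 237 (log2 change 2.75 ± 0.64, adjusted p 0.00186). Csf2ra was at 52.1, 158 and 213 CPM (log2 change 2.27 ± 0.68, adjusted p 0.0179) and was not called without L4 (adjusted p 0.200) or without L16 (0.0616), nor with limma on the mean CPM over cells (0.0562). The receptors not called had log2 changes (adjusted p) of Csf2rb 1.89 ± 0.90 (0.144), Il3ra 1.89 ± 1.08 (0.221) and Il6ra 1.85 ± 1.23 (0.290). Csf2rb and Il6ra were each called higher in 2 of 11 alternatives. These included the fit without Fraction III cells in iHSC (Csf2rb 3.09, adjusted p 0.00954 and Il6ra 3.40, adjusted p 0.0248). The neutrophil markers S100a8, S100a9, Ngp, Ltf and Camp, all 5 detected, summed to 76236 to 209060.0 CPM in these gates, against 49586 to 91503 in mature myeloid cells and 1.08 to 26529 in iHSC. Their part in the result was not tested.

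In mature lymphoid cells, 2 of the 7 receptors were called higher and 1 lower, where 15.8% of genes were called. None of these 3 calls held with the library as a random effect (adjusted p 0.0666 for Csf1r, 0.604 for Il3ra and 0.104 for Csf3r), and L54 held cells of both groups. Csf3r was at 1.79 to 9.59 (median 4.70) CPM against 3.43 to 151 (median 38.2) in iHSC, with overlapping groups (log2 change -2.62 ± 0.79, adjusted p 0.0192), and was not called without L2 (adjusted p 0.0807) or L53 (0.0716). Csf1r, at 1.44 to 119 (median 14.9) CPM (log2 change 4.33 ± 1.31, adjusted p 0.0199), and Il3ra, at 0.136 to 60.5 (median 11.4) (log2 change 2.71 ± 0.97, adjusted p 0.0488), were called higher and were both highest in L3. Without L3 neither was called (Csf1r 2.37, adjusted p 0.255 and Il3ra 1.07, adjusted p 0.553). The call for Il3ra held in 3 of 12 alternatives, that for Csf1r in 9 of 12 and that for Csf3r in 8 of 12. Csf2ra, at 24.97 ± 38.3 CPM (log2 change -0.46 ± 0.71, adjusted p 0.711), was called lower without L3 (-2.50, adjusted p 0.0435). The other receptors not called had log2 changes (adjusted p) of Epor -3.02 ± 1.45 (0.140), Csf2rb -2.67 ± 1.08 (0.0794) and Il6ra 2.17 ± 1.12 (0.170). DESeq2 called Epor (0.0424) and Csf2rb (0.00837) lower. Il6ra was called higher in 2 of 12 alternatives, among them the fit without Fraction III cells in iHSC (3.84, adjusted p 0.00823).

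Between iMPP and iHSC, 0 of the 7 receptors were called, where 10.2% of genes were called and 3341 had an unadjusted p under 0.05. Of the 7, Csf1r was among the latter (log2 change 2.13 ± 1.04, adjusted p 0.197). It was called in 2 of 8 alternatives, among them the fit without Fraction III cells in iHSC (4.72, adjusted p 0.0161). DESeq2 called none of the 7. The others had log2 changes (adjusted p) of Epor 0.81 ± 0.78 (0.578), Csf2ra -0.49 ± 0.45 (0.556), Csf2rb -0.09 ± 0.59 (0.948), Csf3r 0.17 ± 0.43 (0.859), Il3ra 1.38 ± 0.73 (0.240) and Il6ra -0.61 ± 0.81 (0.701). As a description, Flt3 was at 1.63 to 367 (median 34.4) CPM in iMPP and 1.62 to 73.4 (median 18.4) in iHSC, and Kit at 165 ± 83.98 against 252 ± 95.99.

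Other genes of these pathways were taken from lists of 22 signalling genes, 32 partner chains and other receptors and 9 ligands. In iMPP, 0 of 22 signalling genes rose and 3 fell: Socs2 (12.7 ± 18.8 against 131 ± 103 CPM, log2 change -3.49 ± 0.74, adjusted p 0.00130), Cish (25.9 ± 28.4 against 155.3 ± 69.7 CPM, log2 change -2.65 ± 0.66, adjusted p 0.00521) and the kinase Jak1 (119.6 ± 48.4 against 192 ± 83.1 CPM, log2 change -0.69 ± 0.23, adjusted p 0.0431). Of 22, 2 rose and 2 fell in mature myeloid cells, 3 rose and 1 fell in the erythroid gates, and 4 rose and 1 fell in mature lymphoid cells. The shares of all genes called in these comparisons were 10.2%, 12.2%, 15.2% and 15.8%, so the counts of signalling genes are near the background. The Src family kinase Lyn rose in mature myeloid (3.60 ± 0.54, adjusted p 4.58e-06) and erythroid (2.92 ± 0.54, adjusted p 0.000108) gates, and Bcl2l1, a survival factor, in the erythroid gates (3.27 ± 0.71, adjusted p 0.000804). Of 31 partners and other receptors tested, 6 rose and 2 fell in mature myeloid cells, 1 and 2 in the erythroid gates, 7 and 2 in mature lymphoid cells, and 0 and 1 in iMPP. Il17ra (2.96 ± 0.58, adjusted p 0.000292) was among those in myeloid cells and Il2rb (8.41 ± 1.29, adjusted p 1.18e-05), a chain of the interleukin 2 receptor, among those in lymphoid cells. Of 4 ligands tested, Il6 rose in the erythroid gates (7.12 ± 1.86, adjusted p 0.00621) and Csf1 fell in lymphoid cells (-5.63 ± 1.80, adjusted p 0.0268). Il6 was at 10.6 ± 17.96 CPM in the erythroid gates.

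**Figure D2:**
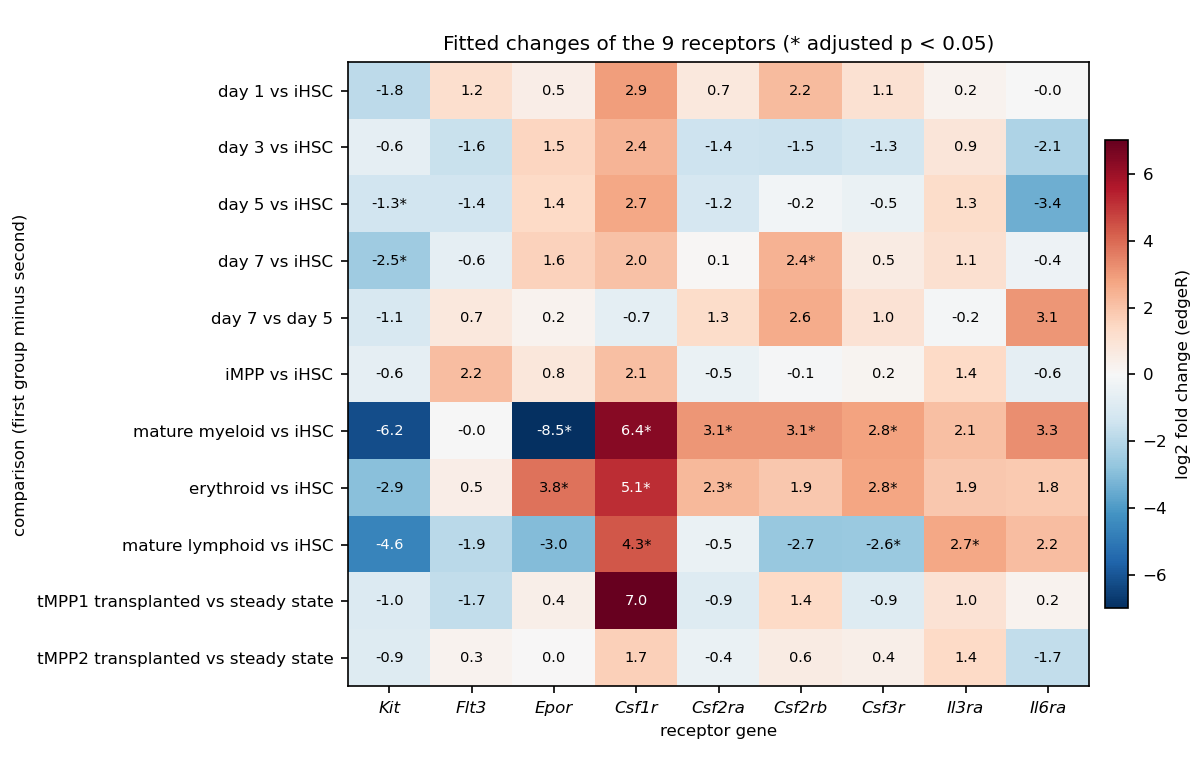
Log2 fold changes fitted by edgeR (colour and number, first group minus second) for the 9 receptors (columns) in 11 comparisons (rows). Asterisks mark adjusted p under 0.05, with none for Kit and Flt3 between sorted populations. Kit is marked on days 5 and 7 and Csf2rb on day 7.

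Against iHSC, Kit fell on days 5 and 7 after transplantation and Csf2rb rose on day 7. Kit was at 105 to 374 (median 278) CPM in the 12 iHSC libraries, at 0, 96.2 and 151 on day 1, 117, 176 and 252 on day 3, 68.7 to 144 (median 109.9) on day 5, and at 23.98 to 65.03 (median 41.2) on day 7. All day 7 libraries lay below all iHSC and all day 5 libraries, while day 5 overlapped iHSC. Kit was the 1 of 9 receptors called on day 5 (log2 change -1.33 ± 0.39, adjusted p 0.0272), where 7.57% of 13353 genes were called. It was 1 of 2 of the 9 called on day 7 (log2 change -2.46 ± 0.36, adjusted p 4.40e-06), where 20.8% were called. The day 7 change was called in all 10 alternative settings, with -2.31 in tHSC and tMPP cells alone. The day 5 change was not called when Fraction III cells, with the highest Kit, were left out of iHSC (-1.15, adjusted p 0.0603), nor with limma on the mean CPM over cells (-1.18, adjusted p 0.161). iHSC cells may have been sorted for surface Kit, and the part of this in the difference was not tested.

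Between day 7 and day 5, which share no iHSC sums, 0 of 9 receptors were called, where 0.404% of genes were called and 1255 had an unadjusted p under 0.05. DESeq2 called Csf2rb. Kit had a difference of -1.13 ± 0.38 (adjusted p 0.177). With the library as a random effect, voom called 4, namely Csf2rb (2.56, adjusted p 0.000193), Kit (-1.16, adjusted p 0.0163), Csf2ra (1.53, adjusted p 0.0328) and Csf3r (1.36, adjusted p 0.0448). Tissue differed between the libraries of a day: on day 5 Kit was at 114 ± 23.95 CPM in 4 spleen libraries, 109.9 in 1 of bone marrow, and 68.7 and 95.3 in the libraries of both. Of the day 7 libraries, 9 were of both tissues and 1 of bone marrow, with Kit at 40.4 CPM in the latter. Among libraries of both tissues, the highest of day 7 was at 65.03 CPM, and day 5 had only 2 such libraries. The part of tissue in the Kit difference was not tested.

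Csf2rb was at 0.442 to 105 (median 11.4) CPM in iHSC, 38.96, 39.2 and 303 on day 1, 4.84, 11.3 and 14.9 on day 3, 12.98 to 41.3 (median 23.8) on day 5, and at 51.5 to 218 (median 131) on day 7. All 10 day 7 libraries lay above all day 3 and day 5 libraries and overlapped iHSC. Against iHSC, Csf2rb rose on day 7 (log2 change 2.42 ± 0.55, adjusted p 0.00151), in all 10 alternative settings. Against day 5 the difference was 2.61 ± 0.68 (adjusted p 0.0604), called in 5 of 9 alternatives. In tHSC and tMPP cells alone it was 1.86, adjusted p 0.0133 against iHSC, and 2.08, adjusted p 0.188 against day 5. The paralog Csf2rb2 was at 36.1 ± 23.2 against 5.88 ± 5.27 CPM, log2 change 2.76 ± 0.95, adjusted p 0.200 between day 7 and day 5. Neutrophil markers summed to 3.25 to 35401 CPM in day 7 libraries. Granulocyte progenitor markers, all 4 detected, summed to 81.4 to 19995 CPM in them and to 102 to 1082 in iHSC. The part of these markers in the Csf2rb difference was not tested.

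On days 1 and 3, 0 of 9 receptors were called by edgeR, where 3.14% and 1.12% of genes were called and 2101 and 1359 had an unadjusted p under 0.05. DESeq2 called Kit on day 1 and none on day 3. In L87, a day 1 bone marrow library of 13 cells, Kit was at 0, Csf2rb at 303 and neutrophil markers at 136771 CPM, against 2287 and 6092 in the others. On day 1 the difference from iHSC was -1.82 ± 0.57 for Kit (adjusted p 0.0722) and 2.24 ± 0.72 for Csf2rb (0.0824). Without L87 these were -1.25 (adjusted p 0.186) and 0.37 (0.920). Without L84, Csf2rb was called (2.68, adjusted p 0.0396), as it was in 5 of 12 alternatives in all.

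The remaining 7 receptors were not called on any day in the edgeR fit. Epor was at 19.05 ± 7.0, 16.6 ± 10.6 and 18.2 ± 17.3 CPM on days 3, 5 and 7 against 6.03 ± 6.02 in iHSC (day 7 log2 change 1.63 ± 0.65, adjusted p 0.0670). In tHSC and tMPP cells alone it was called on day 7 (1.75, adjusted p 0.0352). Csf1r was at 11.5 ± 13.1 CPM on day 7 against 3.21 ± 7.0 (log2 change 2.05 ± 1.08, adjusted p 0.176). Its iHSC level rested on Fraction III, and without these cells it was called higher on day 1 (5.69, adjusted p 0.0138), day 5 (5.42, adjusted p 0.00651) and day 7 (4.77, adjusted p 0.00475). On day 7 it was also called with the library as a random effect (2.87, adjusted p 0.0473). In all, Csf1r was called higher in 2 of 12 alternatives on day 1, 1 of 12 on day 3, 1 of 9 on day 5 and 3 of 10 on day 7. Il6ra was at 1.71 ± 1.5 CPM on day 5 against 19.6 ± 50.9 (log2 change -3.43 ± 1.16, adjusted p 0.0596), and was called lower in 4 of 9 alternatives, among them DESeq2 (-3.79, adjusted p 0.00252). The iHSC library L55, with 5 Fraction III cells, was at 179.6 and the next at 25.6, and without Fraction III the difference was -1.80, adjusted p 0.217. Csf3r was at 21.3 ± 20.1 CPM on day 3 and 61.7 ± 43.4 on day 7, Csf2ra at 21.8 ± 6.47 and 53.3 ± 45.1, Flt3 at 10.03 ± 8.94 and 16.6 ± 15.4, and Il3ra at 9.49 ± 10.9 and 9.88 ± 7.90, with overlapping libraries.

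**Figure D3:**
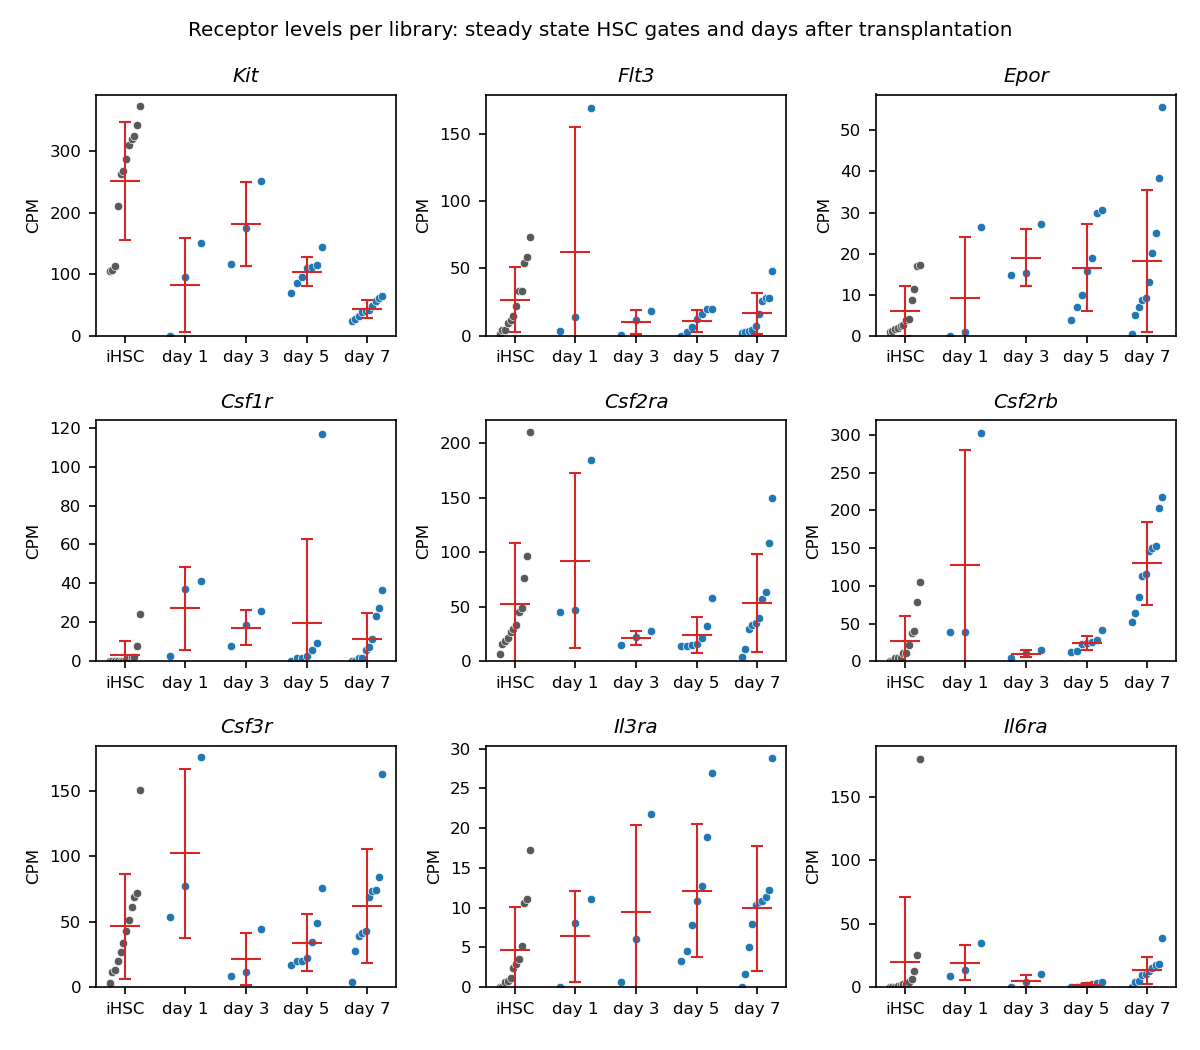
CPM of the 9 receptors per library (points) in iHSC (grey) and on days 1, 3, 5 and 7 after transplantation (blue), with mean and SD in red. Kit on day 7 (23.98 to 65.03 CPM) lies below all iHSC libraries, and Csf2rb on day 7 (51.5 to 218 CPM) above all day 3 and day 5 libraries.

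Of the 22 signalling genes, 1 rose and 2 fell on day 7, where 20.8% of all genes were called, with a median log2 change of -0.24 against -0.10 over all genes. Cish (17.03 ± 12.6 against 155.3 ± 69.7 CPM, log2 change -3.14 ± 0.44, adjusted p 2.79e-06) and Socs2 (27.7 ± 16.7 against 131 ± 103 CPM, log2 change -2.26 ± 0.40, adjusted p 8.28e-05), feedback inhibitors induced by STAT5, were lower than in iHSC. Steady state iMPP cells were also low, at 25.9 ± 28.4 CPM for Cish and 12.7 ± 18.8 for Socs2. Within tMPP2, Socs2 was at 44.0 ± 24.0 CPM in transplanted and 13.3 ± 11.8 in steady state cells (log2 change 1.74 ± 0.45, edgeR adjusted p 0.0589). Lyn rose (69.7 ± 50.8 against 26.9 ± 17.3 CPM, log2 change 1.47 ± 0.41, adjusted p 0.00922). Cish was also the 1 of 22 called on day 1 (-4.02 ± 0.81, adjusted p 0.00242), day 3 (-3.50 ± 0.77, adjusted p 0.0104) and day 5 (-2.28 ± 0.49, adjusted p 0.00238). Over all genes, 3.14%, 1.12% and 7.57% were called on these days. Of 30 partners and other receptors tested, 2 rose and 2 fell on day 7, like the signalling genes a smaller share than of all genes. Among them were Il5ra (-4.36 ± 1.32, adjusted p 0.0150), Il21r (-2.16 ± 0.66, adjusted p 0.0155) and Ifngr2 (1.23 ± 0.43, adjusted p 0.0366). Il5ra alone of the 30 was called on day 5 (-6.73 ± 1.76, adjusted p 0.0140), where 7.57% of all genes were called. Its level was 13.5 ± 29.7 CPM in iHSC, with an SD above the mean, against 0.111 ± 0.152 on day 5 and 0.593 ± 0.920 on day 7. Of 4 ligand genes tested, Flt3l fell on day 7 (10.8 ± 8.39 against 34.6 ± 27.8 CPM, log2 change -1.64 ± 0.60, adjusted p 0.0476).

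Each cell also carried a predicted type in the deposited annotation. For steady state cells, tME held EryA, EryB and MK cells, tGM the mature myeloid gates and tHSC the HSC gates, while tMPP1 to tMPP5 divided the MPP gates. The types were taken here as made from expression, so differences between them are a description. Of the 336 day 5 cells, 6 were of type tMPP3, 5 of them in L66, and of the 389 day 7 cells, 107 were. Mean shares over the day 7 libraries were 23.5% for tMPP3, 11.2% for tGM and 5.84% for tME. On day 7, Csf2rb was at 325 ± 118 (n = 6) CPM in tGM, 407 ± 118 (n = 5) in tME and 226 ± 219.9 (n = 4) in tMPP3, against 31.8 ± 31.9 (n = 9) in tMPP2 and 29.3 ± 16.9 (n = 6) in tMPP5. The tMPP3 libraries ran from 104 to 555 CPM.

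Kit was low where Csf2rb was high, at 4.23 ± 3.93 (n = 6) CPM in tGM, 4.61 ± 2.33 (n = 5) in tME and 27.1 ± 11.9 (n = 4) in tMPP3, against 187 ± 68.01 (n = 2) in tMPP1. Epor was at 45.7 ± 20.5 (n = 9) CPM in tMPP2, where 38.5% of cells carried it after thinning, and at 1.39 ± 1.71 (n = 6) in tGM, 0.896 ± 0.958 (n = 4) in tMPP3 and 1.05 ± 1.10 (n = 5) in tME. The tME type held the erythroid and MK gates at steady state, and day 7 tME cells had neutrophil markers at 55186 to 148169 CPM and Csf3r at 386 ± 378 (n = 5). The steady state erythroid gates carried neutrophil markers at 76236 to 209060.0 CPM, and day 7 tGM cells at 52992.5 to 127759. The erythroid markers did set the day 7 tME cells apart from the erythroid gates, at 0 to 45.6 CPM against 1705 to 3438. In the MK gate they summed to 0 to 134 CPM. Megakaryocyte markers summed to 12.7 to 1146 CPM in day 7 tME cells and 672 to 1074 in the MK gate. Whether day 7 tME cells are of this lineage was not tested. Flt3 was highest in tMPP5 (69.8 ± 48.6 (n = 6)), and Il6ra in tGM (66.9 ± 37.6 (n = 6)). Within tMPP2, Kit was at 184 ± 74.1 (n = 3) CPM on day 3, 96.6 ± 22.7 (n = 6) on day 5, and at 52.7 ± 35.3 (n = 9) on day 7, and Csf2rb at 12.96 ± 10.1, 24.1 ± 8.16 and 31.8 ± 31.9.

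**Figure D4:**
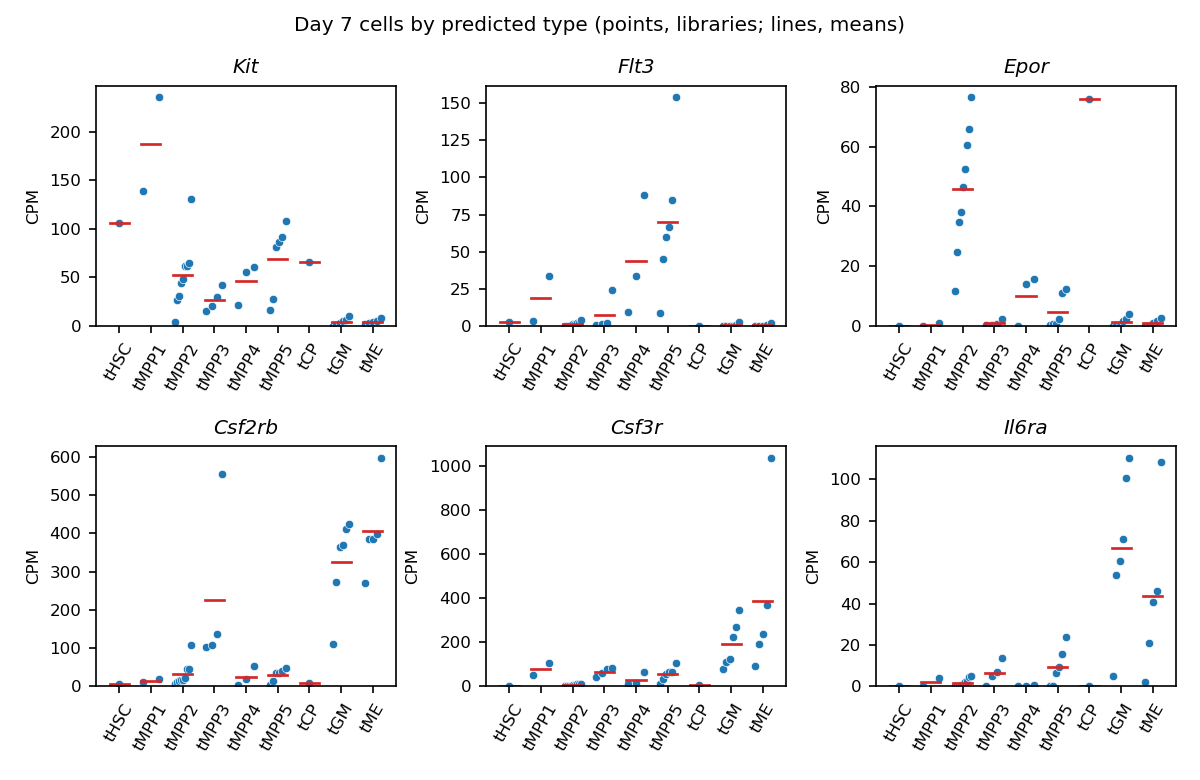
CPM per library (points) and mean (red lines) of 6 receptors in day 7 cells by predicted type, for libraries with at least 3 cells of the type. Csf2rb, Csf3r and Il6ra have their highest means in tGM and tME, where Kit and Epor are near 0, and Epor is high in tMPP2 and in the single tCP library.

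Transplanted cells of all collection days, libraries that pool days included, were joined as a single group. They were compared with steady state cells of the same predicted type in tMPP1 and tMPP2. In both, 0 of 9 receptors were called by edgeR, where 0.494% of 10326 and 0.707% of 10604 genes were called and 1057 and 1171 had an unadjusted p under 0.05. DESeq2 called Kit and Csf1r in tMPP1 and none in tMPP2. Differences on single days within a type were not tested, so these results do not exclude them. Mean Kit levels in tMPP2 were lower on later days, as given above. In tMPP1, Kit was at 100.5 to 306 (median 135) CPM in 13 transplanted and 205 to 384 (median 315) in 5 steady state libraries (log2 change -0.98 ± 0.25, adjusted p 0.0649). Csf1r was at 0 to 54.5 (median 4.35) CPM against 0 to 1.25 (median 0), and its fitted change depends on counts near 0 (log2 change 7.01 ± 1.92, adjusted p 0.0978). The other receptors had log2 changes (adjusted p) of Flt3 -1.72 ± 0.82 (0.466), Epor 0.39 ± 0.92 (0.950), Csf2ra -0.89 ± 0.50 (0.578), Csf2rb 1.39 ± 0.82 (0.621), Csf3r -0.90 ± 0.67 (0.753), Il3ra 0.99 ± 1.19 (0.886) and Il6ra 0.24 ± 1.39 (0.981). Voom called Kit in tMPP1 (-0.99, adjusted p 0.00352) and tMPP2 (-1.12, adjusted p 0.0489). The steady state cells of both types came from sorted MPP gates that may have used surface Kit and Flt3. The part of this in the Kit and Flt3 differences was not tested. In tMPP2, Kit was at 99.1 ± 62.3 against 182 ± 86.9 CPM (log2 change -0.91 ± 0.34, adjusted p 0.251), and Epor at 30.6 ± 21.8 against 30.4 ± 17.6 (log2 change 0.03 ± 0.44, adjusted p 0.987). The others in tMPP2 had Flt3 0.27 ± 0.82 (0.947), Csf1r 1.65 ± 1.17 (0.658), Csf2ra -0.45 ± 0.42 (0.765), Csf2rb 0.57 ± 0.51 (0.744), Csf3r 0.40 ± 0.64 (0.878), Il3ra 1.40 ± 0.68 (0.438) and Il6ra -1.75 ± 1.02 (0.559). Il2rg, the shared chain of the interleukin 2 receptor family, was the 1 partner gene called in each, of 22 tested in tMPP1 (142 ± 53.1 against 43.3 ± 19.00 CPM, log2 change 1.67 ± 0.36, adjusted p 0.0185) and 23 in tMPP2 (57.3 ± 25.4 against 18.5 ± 12.4 CPM, log2 change 1.62 ± 0.37, adjusted p 0.0280). None of the 22 signalling genes was called in either type.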

How the data were processed

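The deposited table holds counts per gene and cell, made by the authors with TopHat and HTSeq on mm10, per the submitters' processing notes, with no versions given. Populations, days and predicted types came from the deposited cell annotation, and the 578 cells without one were left out, as were 120 transplanted cells of 3 libraries that pool days in comparisons by day. Cell totals ran from 20013 to 1943315 counts. Counts were summed per library and group (at least 5 cells) and tested with edgeR 4.0.16 (TMM, filterByExpr, quasi-likelihood test, Benjamini-Hochberg adjustment over all genes tested), in fits over 35 sums for days, 45 for sorted groups, 18 for tMPP1 and 26 for tMPP2. Levels are plain CPM averaged over libraries. The scripts were tested on simulated data. Alternatives were DESeq2 1.42.0, limma 3.58.1, other scaling and filters, at least 10 cells per sum, and leaving out libraries. Leaving Fraction III out of iHSC was added after seeing the data. The receptors and gene lists were chosen with earlier results of these data known. All 9 receptors are plotted in every comparison and named where the text allows, with the 3 genes of the most similar profile each and, per list, up to 3 called genes of smallest p, or the 1 of smallest p. Some members of these lists are given by count only. Some results of these lists and profiles are not reported here.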

Additional observations from a re-analysis of the deposited data

Results flagged for a closer look

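The 9 receptors were examined in 4 groups of 4 to 10 libraries, 36 sets of values in all, and 11 values from 7 libraries stood far from the others of their group. Chance flags about 1 in 20 sets if values are normally distributed, which was not tested for these CPM, and several values come from the same library. On day 5, L66 (8 cells) was highest for Csf1r, at 117 CPM with the next at 9.63, and for Csf2ra, at 58.4. On day 7, L59 was highest for Csf3r (163) and Il6ra (38.3), and L78 for Il3ra (28.8). In mature lymphoid cells, L3 was highest for Csf1r (119) and Csf2ra (82.1). In Fraction III, L50 (6 cells) was highest for Kit (970.0) and Flt3 (273), L55 (5 cells) for Il6ra (179.6) and L76 for Il3ra (9.96).

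The receptors were also detected in 577 cells with counts that carry no annotation and entered no comparison, with a median total of 11102 counts. Kit had a count in 53.7% of them, Flt3 in 22.5%, Epor in 21.7%, Csf1r in 17.9%, Csf2ra in 41.1%, Csf2rb in 35.5%, Csf3r in 44.5%, Il3ra in 19.6% and Il6ra in 11.6%. A count of 0 would have allowed a share of up to 0.520%, for counting error only.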

How the results depend on the processing

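The number of receptors called on day 7 against iHSC (2) and in mature myeloid cells (6 with Kit) stayed within 1.5 times, the limit included, under all alternatives run. Between sorted groups, the counts in this paragraph include Kit and Flt3, which were part of the fits over all genes. Their gates may have used both, so these calls are not taken as results. The receptors called still changed. On day 7 Epor or Csf1r was added in some alternatives. In mature myeloid cells Csf2rb and Epor were lost in some and Il6ra was added in others. DESeq2 called 1 on day 1, 2 on day 5, 1 between days 7 and 5 and 2 in tMPP1, against 0, 1, 0 and 0. With no filter on low counts the counts were 2 on day 1, 2 on day 5, 1 between days 7 and 5 and 1 in tMPP1. With at least 10 cells per sum they were 2 on day 1, 1 on day 3 (against 0), 2 between days 7 and 5 and 1 in tMPP1. RLE factors gave 2 on day 5 and 0 in iMPP (against 1, Flt3). Voom with the library as a random effect gave 4 between days 7 and 5, 0 in iMPP, 1 in mature lymphoid cells (against 4 with Kit), 1 in tMPP1 and 1 in tMPP2 (against 0). Limma on the mean CPM over cells gave 2 on day 1, 0 on day 5 and 0 in iMPP. Using only the 2 groups compared gave 2 between days 7 and 5 and 2 in lymphoid cells, and using tHSC and tMPP cells gave 2 on day 5. iHSC without Fraction III, chosen after seeing the data, gave 2 on day 1 and 2 in iMPP. Leaving out 1 library gave 0 to 1 on day 1, 3 to 5 in the erythroid gates (against 5 with Kit) and 2 to 4 in lymphoid cells. The cause of these changes was not tested. No change of sign counted as a reversal of a called value.

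Over all genes, the number called was 419 (23 to 1002) on day 1 with the range over alternatives in parentheses, 149 (15 to 321) on day 3, 1011 (564 to 2272) on day 5, 2784 (1592 to 4107) on day 7, 54 (10 to 531) between days 7 and 5, 1416 (1022 to 2796) in iMPP, 1691 (798 to 2664) in myeloid, 2096 (1179 to 3191) in erythroid and 2187 (1193 to 2793) in lymphoid gates, 51 (29 to 316) in tMPP1 and 75 (58 to 413) in tMPP2. The share of calls that were higher moved with scaling, from 56.6% to 44.7% on day 5, 50.1% to 35.5% on day 7 and 47.4% to 33.2% in iMPP with RLE factors. With DESeq2 it was 44.2% on day 1 (against 74.5%), 44.3% on day 3 (90.6%), 34.4% on day 5, 32.2% on day 7, 30.9% in myeloid (62.9%), 34.6% in erythroid (64.3%) and 24.5% in lymphoid gates (46.96%). RLE factors moved the median log2 change of all genes on day 7 from -0.10 to -0.31. Of 972 levels and shares recomputed under other averaging or depth, 350, all of them shares of cells, moved by more than 1 SD between libraries or came from 1 library and had no SD. Labels give no replicate numbers that pair libraries, but some libraries held cells of several groups. The fit with the library as a random effect, given above, takes these as blocks, with a correlation within libraries of 0.101 for days and 0.187 for sorted groups. In tMPP1 and tMPP2 no library gave more than 1 sum, so voom had no block there.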

Other observations

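Values of 3 libraries that pool collection days entered no comparison by day. In the libraries of days 1 and 3, Kit was at 174 CPM in L80 (28 cells) and 92.1 in L88 (54 cells), Csf2rb at 11.01 and 99.6, and Epor at 12.2 and 2.96. In L77, of days 5 and 7 (38 cells), Kit was at 54.7, Csf2rb at 91.9 and Epor at 30.2 CPM.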
